A study of Mus musculus with 8 samples.

Results

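Transcripts of 32 antioxidant and NRF2 target genes were followed in mouse hearts with a Carns transgene (TG) and in wild-type hearts (WT). The genes were listed by symbol for their known roles, with earlier results of these data known, and their symbols were matched to NCBI Gene numbers. All 32 were present in every library, among 18215 gene numbers in the tables. Polyadenylated RNA from heart was sequenced for 4 TG and 4 WT libraries. The labels name the tissue, the transgene and the group, and give no promoter, strain, age or sex, so the cells that carry the transgene are not known from them. Nothing in them ties a library to an animal of its own, and p-values here therefore reflect only the spread among these libraries, which may be technical. The design compares hearts with and without added carnosine synthase, and group means are given ± SD over 4 libraries each.

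NRF2, encoded by Nfe2l2, is the transcription factor that raises antioxidant enzymes when cells meet oxidants or electrophiles. At rest the cysteine-rich adaptor KEAP1 marks it for degradation, and modification of those cysteines lets it accumulate, pair with small MAF proteins and bind antioxidant response elements. The transgene encodes the synthase that makes carnosine, a histidyl dipeptide abundant in muscle. Carnosine buffers protons, binds metals and forms adducts with reactive aldehydes, and its level was not measured in these libraries. The genes fall into 8 roles, from the regulators through glutathione, thioredoxin and peroxiredoxin enzymes to the metallothioneins and the pentose phosphate pathway, which supplies the NADPH that the reductases use.

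The element that links many of these genes is shown first, because it is the sequence NRF2 is known to bind. The core TGACNNNGC was searched on both strands of RefSeq promoter windows of assembly GRCm38.p6, which run from 250 bases before to 50 bases after a start site. Of the 32 genes 27 had a window, and Gclc, Gsr, Hmox1, Prdx6 and Sod3 had none. A match was found in 9 of the 27 genes (33.3%), where 14.0% of all 27025 genes with windows hold one. Each match is printed below with 10 bases on either side, on the strand where it reads as the core, which stands in capitals.
Prdx1: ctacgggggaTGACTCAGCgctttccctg
Mt2: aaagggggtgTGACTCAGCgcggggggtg
Nfe2l2: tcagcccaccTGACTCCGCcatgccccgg
G6pdx: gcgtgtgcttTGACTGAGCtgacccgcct
Txnrd1: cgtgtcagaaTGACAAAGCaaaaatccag
Gclm: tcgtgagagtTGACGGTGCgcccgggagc
Sod1: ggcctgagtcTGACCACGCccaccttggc
Srxn1: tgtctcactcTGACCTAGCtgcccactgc
Pgd: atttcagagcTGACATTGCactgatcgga

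The Prdx1 stretch lies at chr4:116685456-116685484 (minus strand), with its match 133 bases before the start site, and the Mt2 stretch at chr8:94172529-94172557 (plus strand), 79 bases before it. The Prdx1 and Mt2 cores are the same 9 letters. The Nfe2l2 match at chr2:75704885-75704913 (minus strand) lies 240 bases upstream, within the promoter of the NRF2 gene itself. The Txnrd1 match at chr10:82859104-82859132 (minus strand) lies 92 bases upstream. G6pdx (chrX:74428919-74428947, plus), Gclm (chr3:122245413-122245441, minus) and Sod1 (chr16:90220696-90220724, minus) also have matches upstream, by 57, 134 and 56 bases. Those of Srxn1 (chr2:152105542-152105570, minus) and Pgd (chr4:149166061-149166089, minus) lie after the start site. A match is a string of letters and not a measured binding site. Only these windows were searched, so a gene without a match may hold the element elsewhere. Between TG and WT the 9 genes with a match had a median log2 fold change of 0.06 (range -0.04 to 0.25). The 18 without one in their windows had a median of 0.02 (range -0.17 to 0.82).

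Library totals lay between 6261193 and 7897629 expected counts, and no gene of the set had fewer than 86 counts in any library. Carns1 stood at 20812 ± 2454 counts per 1000000 (CPM) for TG, against 62.6 ± 12.5 CPM for WT; each TG library lay above each WT library, as labelled. The 8 cardiomyocyte markers, among them Myh6, Tnnt2 and Myl2, summed to 67188 to 81583 CPM in the 8 libraries, as the label heart requires. TG replicate 2 stood apart in 10 adipocyte markers, which summed to 3474 CPM there and to 112 to 214 CPM in the other 7 libraries. In 6 atrial markers it held 893 CPM against 63.7 to 270 CPM. The libraries also fell into 4 deeper ones (TG replicates 1 and 3, WT replicates 1 and 2) and 4 shallower ones (TG replicates 2 and 4, WT replicates 3 and 4). Fold changes without TG replicate 2 are given below for Cat, Gpx3 and the pentose phosphate genes, and fold changes within each depth class for the members named there.

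Measured per length as deposited FPKM, the 32 genes spanned from 4.44 ± 0.72 for Gclc to 1204 ± 180 for Gpx4 (SD over all 8 libraries). Gpx4, the selenoenzyme that reduces lipid hydroperoxides in membranes, ran from 967 to 1498 FPKM and lay above every other member in every library. Prdx5, a peroxiredoxin of mitochondria, peroxisomes and cytosol, came next at 645 ± 79 FPKM. It was followed by Gpx3, the secreted glutathione peroxidase, at 455 ± 117 and by Sod1, the cytosolic copper and zinc superoxide dismutase, at 367 ± 20 FPKM. Mt1, a small cysteine-rich metal-binding protein, stood at 355 ± 46 FPKM. Of the 32 genes 12 had a mean of at least 100 FPKM, and these were the peroxiredoxins Prdx1, Prdx2, Prdx3 and Prdx5, the glutathione peroxidases Gpx1, Gpx3 and Gpx4, Sod1, Sod2, Cat, Mt1 and Txnip. The enzymes that make glutathione stood far lower, with Gclm at 10.2 ± 0.7 and Gss at 7.43 ± 0.51 FPKM. In this order of levels, 27 of the 31 pairs of neighbours had ranges over the 8 libraries that overlapped. The 4 gaps lay between Gpx4 and Prdx5, between Mt1 and Prdx2, between Sod2 and Gpx1, and between Gss and Gclc.

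**Figure D1:**
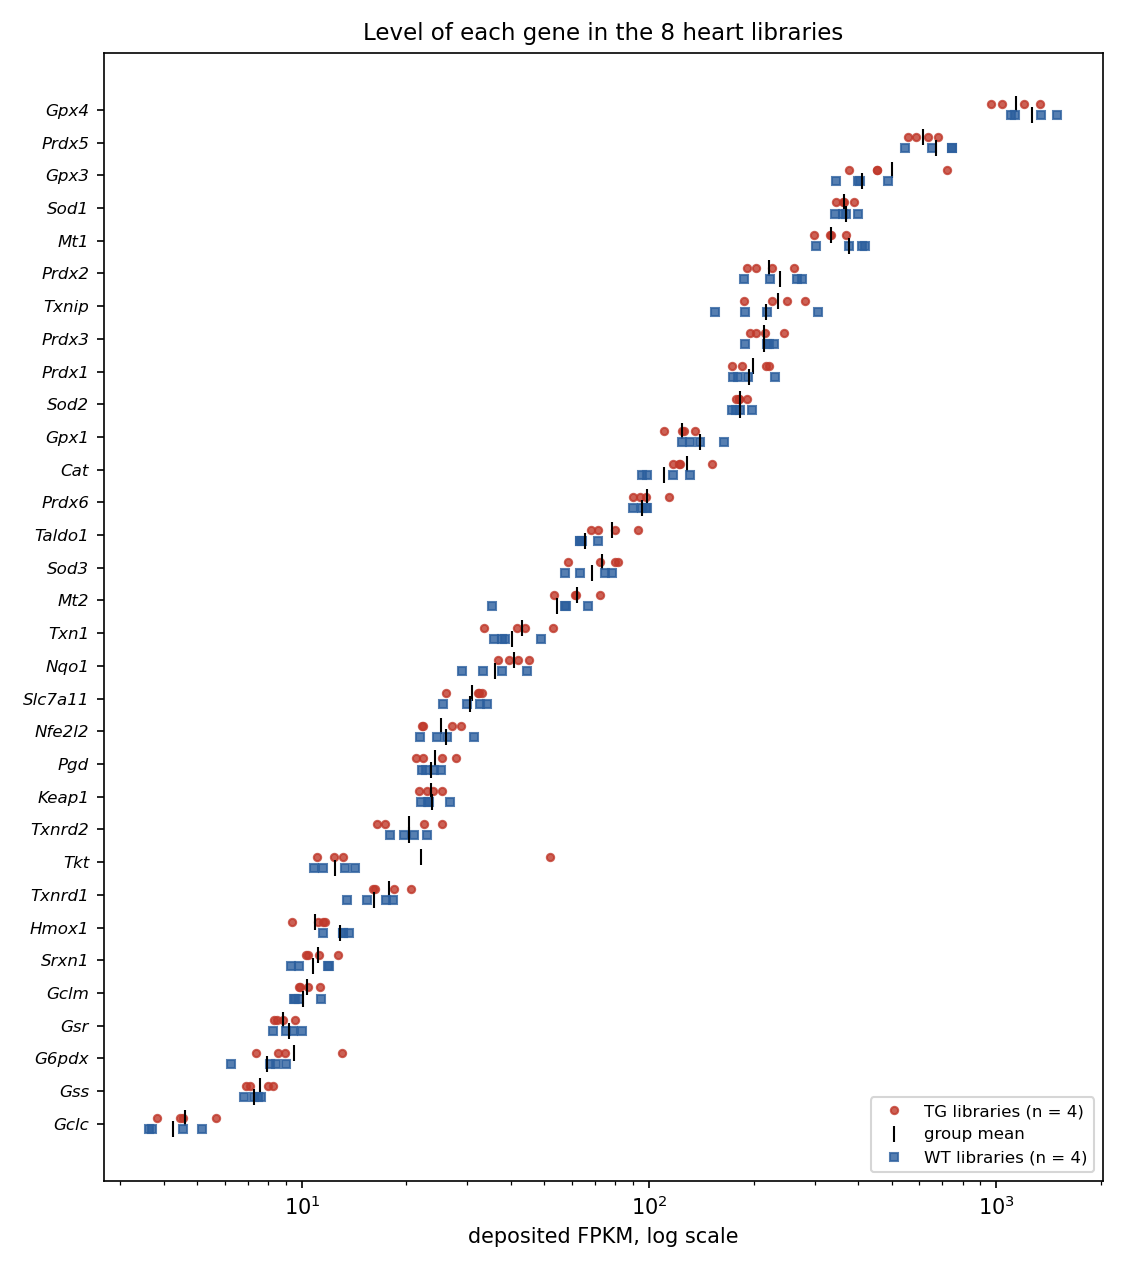
Deposited FPKM (log scale, x axis) of the 32 genes in each of the 4 TG (circles) and 4 WT (squares) libraries, ordered by mean level, with a tick at each group mean. Gpx4 is highest at 967 to 1498 FPKM, and the single detached point is Tkt in TG replicate 2.

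None of the 32 genes passed the threshold between TG and WT. The count was 0 of 32 at an edgeR Benjamini-Hochberg adjusted p under 0.05, where 0.0158% of the 12670 genes tested passed, and 0 of 32 at an unadjusted p under 0.05, where 3.49% of all genes had one. Every member had an edgeR adjusted p of 0.99955. DESeq2 also called 0 of the 32, where 15 of the 12670 genes passed. It gave 0 of the 32 an unadjusted p under 0.05, where 344 of the 12670 had one. In no member did the 4 TG values all lie on one side of the 4 WT values, where the groups did not overlap in 2.53% of all genes. Of the 32 fold changes 22 were above 0 and 10 below, with a median log2 fold change of 0.05, beside a median of -0.002 over all genes tested. The direction is not a call for any of them.

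Taken gene by gene, the intervals show how far a difference could have gone unseen, given the spread among these libraries. In 28 of the 32 genes the 95% interval of the fold change lay within 1.5-fold in both directions. The 4 exceptions were Tkt, Gpx3, G6pdx and Mt2, whose upper bounds were 3.27, 1.61, 1.57 and 1.51-fold higher in TG. The lowest lower bound was that of Hmox1, at 0.70 of the WT level. The tightest interval belonged to Sod2, from 0.87 to 1.16 of the WT level. The ratio of the highest to the lowest library was 1.46 in the median member, from 1.17 to 4.82, and 1.47 in the median of the 8707 genes with a mean of at least 10 CPM.

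**Figure D2:**
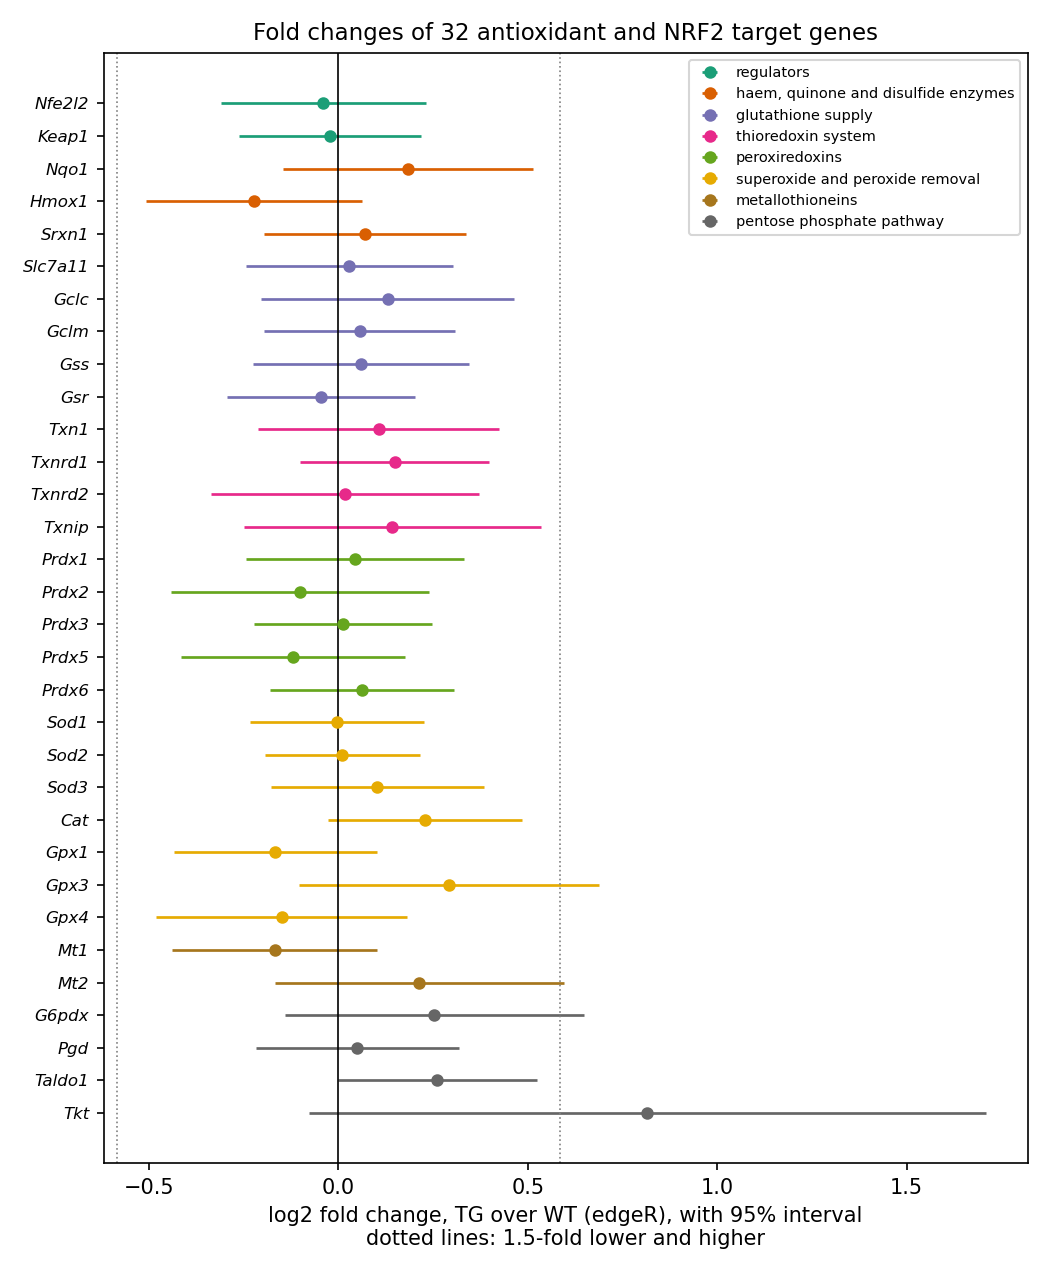
Log2 fold change of each gene, TG over WT, from edgeR (x axis), with its 95% interval, coloured by role and with dotted lines at 1.5-fold. All 32 intervals include 0, and Tkt has the widest, up to 3.27-fold.

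For both regulators the group means differed by less than the SD within a group. Nfe2l2, the gene of NRF2, stood at 57.5, 67.4, 57.4 and 70.0 CPM in TG replicates 1 to 4, against 65.7, 57.3, 77.3 and 59.0 CPM in WT replicates 1 to 4. The lowest and highest values of all 8 libraries were both in WT. Its log2 fold change was -0.04 (SE 0.13, 95% interval -0.31 to 0.23). Keap1, the gene of its adaptor, averaged 79.8 ± 7.4 CPM (TG) against 81.0 ± 8.0 CPM (WT). NRF2 activity is set largely by protein stability, which mRNA levels do not measure.

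Of the NRF2 target enzymes Nqo1, Hmox1 and Srxn1, the first and the last had fold changes above 0 and Hmox1 one below. Nqo1, a quinone reductase that is a widely used readout of NRF2, stood at 71.8, 60.9, 66.7 and 55.6 CPM in TG replicates 1 to 4, against 58.5, 72.3, 44.1 and 49.5 CPM in WT replicates 1 to 4. WT replicate 2 was the highest library and WT replicates 3 and 4 the lowest. Its means were 63.7 ± 7.0 and 56.1 ± 12.3 CPM. Hmox1, haem oxygenase 1, which splits haem and is abundant in macrophages that clear red cells, stood at 19.6, 15.2, 19.3 and 17.7 CPM in the TG libraries, against 21.5, 22.5, 18.5 and 21.4 CPM in the WT libraries. WT replicate 3 lay below TG replicates 1 and 3, so the groups overlapped, and the log2 fold change was -0.22 (SE 0.13, edgeR unadjusted p = 0.115). The 8 macrophage markers summed to 395 to 641 CPM in TG and 581 to 687 CPM in WT, 1 of the 8 had a higher mean in TG, and none was at 0 in any library. Their part in the Hmox1 values was not tested, and in bulk tissue fewer cells and less RNA per cell cannot be told apart. Srxn1, sulfiredoxin, which restores overoxidised peroxiredoxins, spanned 29.2 to 35.4 CPM in the TG libraries, against 26.5 to 33.5 CPM in the WT libraries.

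In the supply of glutathione, fold changes of the 5 genes lay between -0.05 and 0.13 on the log2 scale. Slc7a11, the cystine importer that feeds glutathione synthesis, was the most abundant of the 5 at 30.7 ± 3.3 FPKM (SD, n = 8). It stood at 311, 243, 319 and 297 CPM in TG replicates 1 to 4, against 321, 294, 302 and 230 CPM in WT replicates 1 to 4. The lowest library of each group, TG replicate 2 and WT replicate 4, lay apart from 3 like values. Gclc, the catalytic subunit of the rate-limiting glutamate-cysteine ligase, had the lowest FPKM of the whole set, while Gss had a lower mean CPM over the 8 libraries. It stood at 13.7, 15.7, 16.0 and 19.2 CPM in the TG libraries, against 12.9, 13.2, 15.6 and 17.3 CPM in the WT libraries, and the groups interleaved. Its log2 fold change was 0.13 (SE 0.15). The modifier subunit gene Gclm varied little, from 19.6 to 22.9 CPM over all 8 libraries. Gss, glutathione synthetase, stood at 14.995 ± 1.287 and 14.396 ± 0.872 CPM and Gsr, which recycles oxidised glutathione, at 24.0 ± 1.8 and 24.8 ± 1.1 CPM in TG and WT.

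All 4 genes of the thioredoxin system had fold changes above 0, between 0.02 and 0.15 on the log2 scale, and none passed the test. Txnrd1, the cytosolic selenoenzyme that reduces thioredoxin, stood at 56.9, 62.0, 56.4 and 68.3 CPM in TG replicates 1 to 4, against 52.8, 48.0, 59.3 and 59.8 CPM in WT replicates 1 to 4. Its 2 lowest libraries were in WT and its 2 highest in TG, with overlap in between, and the log2 fold change was 0.15 (SE 0.12, edgeR unadjusted p = 0.221). Txnip, which binds and inhibits thioredoxin and is induced by glucose, was the most variable of the 4, at 656, 525, 816 and 687 CPM in the TG libraries, against 438, 559, 607 and 828 CPM in the WT libraries. Both the highest and the lowest library were WT, so the spread within WT exceeded the difference of the means. Txn1, thioredoxin itself, stood at 44.8 ± 7.7 and 41.6 ± 5.8 CPM and the mitochondrial reductase gene Txnrd2 at 39.7 ± 9.2 and 39.3 ± 4.6 CPM in TG and WT.

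The peroxiredoxins, which reduce peroxides through a reactive cysteine, were close between groups, with 3 fold changes above 0 and 2 below. Prdx5 stood at 468, 389, 437 and 361 CPM in TG replicates 1 to 4, against 498, 522, 429 and 348 CPM in WT replicates 1 to 4. WT replicates 1 and 2 were the highest 2 and WT replicate 4 the lowest, and the log2 fold change was -0.12 (SE 0.14). Prdx2, a cytosolic peroxiredoxin that is very abundant in red cells, averaged 326 ± 54 CPM (TG) against 350 ± 71 CPM (WT). The 7 erythroid markers summed to 13443 to 29086 CPM in TG and 17870 to 29379 in WT. WT replicate 2 had the highest of these sums and the highest Prdx2 level, 422 CPM, while TG replicate 4 had the second highest sum and the second lowest Prdx2 level, 273 CPM. The part of red cells in the Prdx2 values was not tested. The mitochondrial Prdx3 stood at 311 ± 32 and 309 ± 25 CPM, Prdx1 at 284 ± 35 and 275 ± 46, and Prdx6, which also acts on phospholipids, at 239 ± 30 and 229 ± 18 CPM in TG and WT.

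Among the enzymes that remove superoxide and peroxide, 4 of 7 fold changes were above 0 and 3 below. The superoxide dismutases turn superoxide into hydrogen peroxide. Sod1 stood at 235 ± 17 and 235 ± 24 CPM, the mitochondrial Sod2 at 713 ± 23 and 708 ± 46, and the extracellular Sod3 at 150 ± 19 and 140 ± 21 CPM in TG and WT. Cat, catalase, which splits hydrogen peroxide in peroxisomes, stood at 323, 388, 309 and 308 CPM in TG replicates 1 to 4, against 246, 266, 296 and 324 CPM in WT replicates 1 to 4. Only WT replicate 4 reached into the TG range. The log2 fold change was 0.23 (SE 0.12, 95% interval -0.03 to 0.49, edgeR unadjusted p = 0.076), and it was 0.15 without TG replicate 2.

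Gpx4 stood at 1325, 987, 1187 and 903 CPM in TG replicates 1 to 4, against 1296, 1505, 1039 and 1042 CPM in WT replicates 1 to 4. In both groups the deeper libraries held the higher values, and the means were 1100 ± 191 and 1221 ± 225 CPM. Gpx1, the cytosolic glutathione peroxidase, stood at 132 ± 12 and 148 ± 24 CPM in TG and WT. Gpx3 was described after its values were seen. It stood at 705, 1082, 585 and 666 CPM in the TG libraries, against 606, 774, 516 and 586 CPM in the WT libraries. TG replicate 2, the library rich in adipocyte markers, was the highest of the 8. The log2 fold change of Gpx3 was 0.29 (SE 0.18) with all libraries and 0.07 without that library.

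The metallothioneins bind zinc and copper through their cysteines and are induced by metals, through the factor MTF1, and by glucocorticoids. The core of the metal response element, TGCACNC or TGCGCNC, was searched in the same windows on both strands. It was present in 8 of 27 members (29.6%) and in 28.2% of all genes. Mt1 and Mt2 had 3 and 4 matches, printed with 10 bases on either side and the match in capitals. They are shown because metals are known to act on these genes through elements that hold this core. Here too a match is a string of letters and not a measured binding site.
Mt1 at chr8:94179056-94179082: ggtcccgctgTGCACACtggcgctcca
Mt1 at chr8:94179081-94179107: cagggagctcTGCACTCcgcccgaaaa
Mt1 at chr8:94179099-94179125: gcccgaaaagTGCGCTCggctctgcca
Mt2 at chr8:94172385-94172411: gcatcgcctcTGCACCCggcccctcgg
Mt2 at chr8:94172480-94172506: gcagacccttTGCGCTCagctcctttg
Mt2 at chr8:94172558-94172584: ggacagagccTGCACACgccctccccc
Mt2 at chr8:94172612-94172638: cccctgggccTGCGCACgacccgaatt

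The last 2 Mt2 stretches are on the minus strand and the others on the plus strand. Mt1 stood at 212, 184, 172 and 182 CPM in TG replicates 1 to 4, against 169, 245, 225 and 202 CPM in WT replicates 1 to 4. WT replicate 1 was the lowest and WT replicate 2 the highest library, and the log2 fold change was -0.17 (SE 0.13). Mt2 stood at 39.5, 32.4, 29.1 and 31.8 CPM in the TG libraries, against 18.8, 31.8, 30.2 and 33.9 CPM in the WT libraries, with a mean of 33.2 ± 4.5 and 28.7 ± 6.8 CPM. WT replicate 1 was the lowest library for both genes. The means of Mt1 and Mt2 lay on opposite sides between the groups, and neither difference passed the test. An antisense transcript overlaps 432 of the 588 exon bases of Mt2 in GENCODE M21, and the sources used here do not say whether counting used strand, so its reads are uncertain.

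The 4 pentose phosphate genes all had fold changes above 0, and all 4 were highest in TG replicate 2. Tkt, transketolase, which shuttles carbon units between sugars in the non-oxidative branch, stood at 44.2, 168, 37.3 and 39.4 CPM in TG replicates 1 to 4, against 46.6, 45.8, 34.9 and 36.1 CPM in WT replicates 1 to 4. Apart from TG replicate 2, the groups overlapped between 34.9 and 46.6 CPM. Without TG replicate 2 the log2 fold change went from 0.82 (SE 0.41, edgeR unadjusted p = 0.070) to -0.02. G6pdx, the glucose-6-phosphate dehydrogenase that opens the oxidative branch, stood at 24.5, 34.4, 20.2 and 22.1 CPM in the TG libraries, against 21.6, 25.1, 16.4 and 21.6 CPM in the WT libraries. Its log2 fold change of 0.25 (SE 0.18) became 0.07 without TG replicate 2.

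Taldo1, transaldolase of the non-oxidative branch, had the smallest unadjusted p of the 32 genes. It stood at 104, 117, 93.0 and 84.2 CPM in TG replicates 1 to 4, against 81.3, 94.8, 79.1 and 77.0 CPM in WT replicates 1 to 4. WT replicate 2 lay above TG replicates 3 and 4, so the groups overlapped. Its log2 fold change was 0.26 (SE 0.12, 95% interval -0.00 to 0.52, edgeR unadjusted p = 0.051), and 0.18 without TG replicate 2 (unadjusted p = 0.171). Pgd, the 6-phosphogluconate dehydrogenase, stood at 58.5, 61.9, 51.3 and 46.3 CPM in the TG libraries, against 53.97, 58.9, 48.7 and 48.8 CPM in the WT libraries, a log2 fold change of 0.05 that was -0.015 without TG replicate 2. Tkt, G6pdx and Pgd were described one by one after their values were seen.

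In TG replicate 2 the lipogenic genes Fasn and Scd1 stood at 1004 and 1565 CPM, against 35.6 to 62.5 and 21.4 to 60.9 CPM in the other 7 libraries. Adipoq, a hormone gene of fat cells, stood at 68.4 CPM there and at 0.27 to 3.12 CPM elsewhere. All 10 adipocyte markers had a higher mean in TG, Lep was at 0 in 5 libraries and Retn in 3. Of the 32 genes 9 were highest in TG replicate 2, namely Tkt, G6pdx, Pgd, Taldo1, Gpx3, Cat, Sod3, Prdx3 and Txn1. As many, 9, were highest in WT replicate 2, where the adipocyte sum was 123 CPM, namely Nqo1, Hmox1, Prdx1, Prdx2, Prdx5, Sod1, Gpx1, Gpx4 and Mt1. TG replicate 2 also had the highest atrial sum, so leaving it out takes away the library highest in both marker sums. Atrial markers were also present in TG replicate 4, with a sum of 258 CPM, below the 270 CPM of WT replicate 4. There Myl7, Myl4 and Dkk3 stood at 46.8, 63.7 and 42.5 CPM, against 203, 249 and 37.0 CPM in TG replicate 2. The part of either marker group in the values of the 32 genes was not tested.

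**Figure D3:**
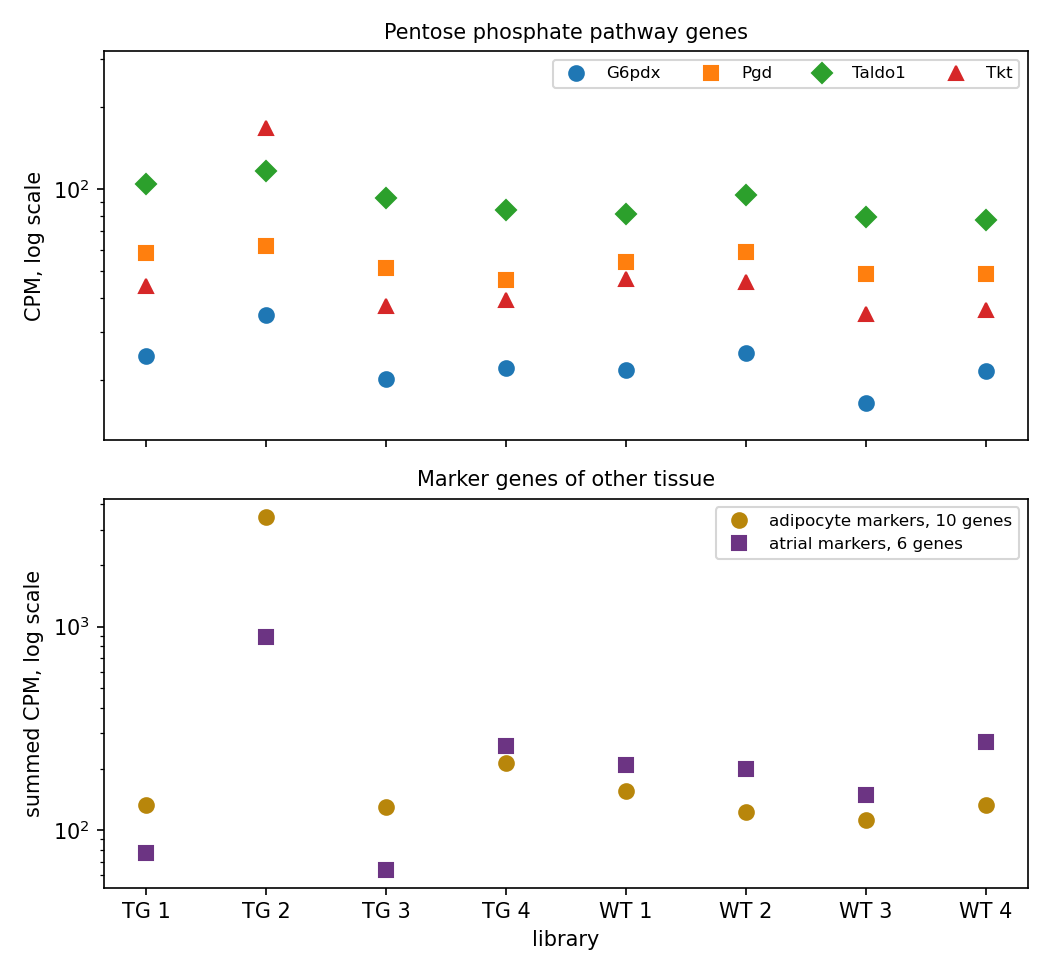
CPM (log scale) of the 4 pentose phosphate genes (upper panel) and summed CPM (log scale) of adipocyte and atrial markers (lower panel) in each library. Tkt at 168 CPM and the adipocyte sum at 3474 CPM both stand out in TG replicate 2.

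Several members differed between the deeper and the shallower libraries. In 20 of the 32 the log2 difference by depth class was larger in size than that by group. The same count was not made over all genes, so it cannot be read as a trait of this set. In 6 of 32 genes (18.8%) the 4 deeper and the 4 shallower libraries did not overlap, where this held in 29.9% of all genes tested. Keap1, Prdx2, Prdx5, Prdx6 and Gpx4 were higher in each deeper library, and Txnrd1 was lower. Gpx4 lay between 1187 and 1505 CPM in the deeper and between 903 and 1042 CPM in the shallower libraries. Prdx2 lay between 341 and 422 CPM in the deeper and between 263 and 322 CPM in the shallower libraries. The mean log2 difference, deeper minus shallower, was 0.43 for Prdx2, 0.42 for Gpx4, 0.38 for Txnrd2 and 0.36 for Nqo1. The groups are balanced over depth, with 2 libraries of each group in each class.

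Within the depth classes the direction of some genes differed. Hmox1 had a log2 fold change of -0.18 in the deeper and -0.27 in the shallower libraries, Cat 0.30 and 0.17, and Taldo1 0.16 and 0.37. Gpx3 had -0.10 and 0.67, G6pdx -0.06 and 0.58, Pgd -0.04 and 0.15, and Tkt -0.18 and 1.55, where the shallower class holds TG replicate 2. Txnip had 0.56 in the deeper and -0.24 in the shallower libraries. Txnrd2 also lay on opposite sides of 0, at 0.175 and -0.19. Mt2 had 0.45 and 0.002, Gpx1 -0.30 and -0.01, and Nqo1 0.08 and 0.32. The 6 members that separate the depth classes kept their sign within both: Gpx4 had -0.16 and -0.14, Prdx2 -0.145 and -0.04, Prdx5 -0.17 and -0.05, Keap1 -0.03 and -0.01, Prdx6 0.11 and 0.01, and Txnrd1 0.17 and 0.13. Each class holds 2 libraries per group, and the difference between the classes was not tested. With depth class as a covariate, Cat, Taldo1 and Hmox1 had unadjusted p values of 0.014, 0.023 and 0.043 by edgeR, that is 3 of 32 genes (9.38%), beside 8.97% of all genes in that fit. The share is near the background, and 0 of the 32 passed after Benjamini-Hochberg adjustment over all genes.

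**Figure D4:**
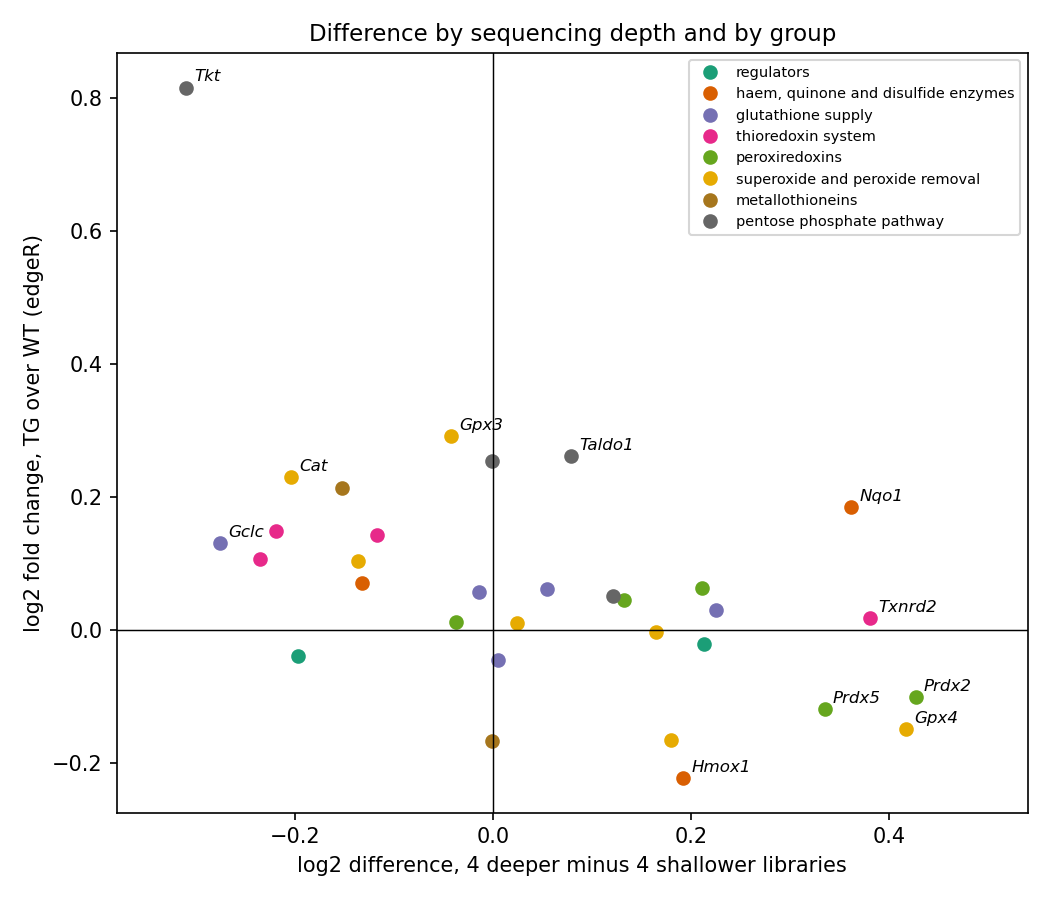
Each point is one of the 32 genes, coloured by role, with its log2 difference between the 4 deeper and 4 shallower libraries on the x axis and its log2 fold change, TG over WT, on the y axis. Prdx2 and Gpx4 lie furthest right at 0.43 and 0.42, and Tkt highest at 0.82.

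A further list of 73 genes of the same pathways was examined, covering the partners and repressors of NRF2, more of its targets, other thiol enzymes, NADPH sources and metal handling. Of these 71 were listed in the tables and 66 passed the filter on low counts. None passed the threshold by edgeR with adjustment over all genes, and none by DESeq2. At an unadjusted edgeR p under 0.05, 2 were higher in TG, where 1.53% of all genes were, and 1 was lower, where 1.96% were. DESeq2 gave 2 of the 66 an unadjusted p under 0.05, where 344 of all 12670 genes had one. Of the 66, 30 had a fold change above 0 and 36 below, with a median of -0.02, and in 5 the groups did not overlap, where this held in 2.53% of all genes. These 5, named after their values were seen, were Glrx3, Sesn3, Nnt and Pgam5, higher in TG, and Dpp3, lower, with unadjusted edgeR p from 0.057 to 0.270.

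The 5 with the smallest p were Nupr1, Aox1, Me3, Mafg and Glrx3. Nupr1, a small stress-induced chromatin protein, averaged 7.17 ± 1.38 CPM (TG) against 4.80 ± 1.19 CPM (WT), a log2 fold change of 0.58 (SE 0.22, edgeR unadjusted p = 0.021, adjusted p above the threshold). Aox1, aldehyde oxidase, stood at 29.7 ± 2.3 and 22.8 ± 6.2 CPM, a log2 fold change of 0.38 (SE 0.17), with WT replicate 4 at 31.8 CPM inside the TG range. Me3, the mitochondrial NADP-dependent malic enzyme, had the lower mean in TG, 100.4 ± 12 against 119 ± 12 CPM, a log2 fold change of -0.25 (SE 0.11). Mafg, a small MAF partner of NRF2, averaged 16.01 ± 1.49 and 12.9 ± 1.7 CPM, a log2 fold change of 0.31 (SE 0.15). Glrx3, a glutaredoxin that carries iron-sulfur clusters, stood at 102 ± 8.5 and 88.8 ± 3.8 CPM, and its 4 TG values lay above its 4 WT values (edgeR unadjusted p = 0.057).

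The most abundant of the further genes were the ferritin chains, which store iron, and a mitochondrial NADPH source. Fth1 averaged 3564 ± 481 CPM (TG) against 3430 ± 548 CPM (WT), Ftl1 719 ± 112 against 773 ± 118, and Idh2 1632 ± 190 against 1619 ± 401 CPM. In each of these 3 the difference was smaller than the spread between libraries. Fth1, at 3760 ± 412 FPKM over the 8 libraries, stood above every member of the set, Gpx4 included.

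Exons of several of the 32 genes overlap another annotated gene in GENCODE M21. Mt2, Txnip, Keap1 and Gss share exon bases with antisense transcripts, Gss also with Acss2, Prdx2 with Junb and Rnaseh2a, Prdx5 with Trmt112, G6pdx with Ikbkg, and Gclm with an opposite transcript and a pseudogene. Without strand, reads from these stretches cannot be assigned with certainty. Reads of Prdx1, Prdx2, Prdx6, Txn1 and Gpx4 may also match processed copies elsewhere in the genome, and the sources used here do not say how such reads were divided.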

How the data were processed

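The authors deposited 1 table per library, listing NCBI Gene numbers with their expected count and FPKM, per the file headers. The deposited expected counts are estimated reads or fragments per gene, not normalized. The deposited FPKM is fragments per kilobase of transcript, scaled to library size by the authors. Per the submitters' processing notes, Bowtie2 and build mm8 were used, without a stated role, and no source used here gives the counting program. Genes not listed in a table were taken as 0, and 18174 of 18215 numbers matched a symbol of GRCm38.p6, which was used for names and RefSeq promoter windows only.

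Expected counts were rounded and filtered with filterByExpr (minimum count 10, minimum total 15), which left 12670 genes. TG and WT were compared with edgeR 4.0.16 (R 4.3.3) by the quasi-likelihood F-test with TMM scaling, two-sided, with Benjamini-Hochberg adjustment over all genes and a threshold of 0.05; the adjusted p printed for members is from this fit. CPM are TMM-scaled. SE is the absolute log2 fold change over the square root of F, and 95% intervals use the t distribution with the fit's degrees of freedom. These cover one gene at a time. A total of 3 counts in a library equals 0.38 to 0.479 CPM, which covers counting error only. The alternatives used DESeq2 1.42.0 and limma 3.58.1. The script was tested on simulated counts.

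Members and lists were chosen with earlier results of these data known. Fold changes with SE were given for the gene with the smallest p in each role, values per library also for the most abundant gene in each role, levels for all, and the 5 smallest p and 3 most abundant of the further list. Tkt, Gpx3, G6pdx and Pgd were added after their values were seen, and other single values are quoted where a sentence names them. One further gene symbol (H6pdx) matched no gene number. The depth classes split libraries at the widest gap in total counts. Libraries of a group differed by more than sampling noise, with a smallest chi-square per degree of freedom of 4.45.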

Additional observations from a re-analysis of the deposited data

Results flagged for a closer look

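Levels in each group of 4 were examined for a library far from the other 3, in 82 groups, and 2 were found. Chance gives about 1 in 20. Tkt in TG replicate 2 was at 168 CPM, while the remaining TG libraries ran from 37.3 to 44.2 CPM. Gsr in TG replicate 1 was at 26.7 CPM, while the remaining TG libraries ran from 22.8 to 23.3 CPM and the WT libraries from 23.5 to 26.1 CPM.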

How the results depend on the processing

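The count of members past the threshold was 0 of 32 under all 19 alternatives, and the count of further genes was likewise 0. At an unadjusted p under 0.05 there were 0 to 5 members. The 5 were in the shallower libraries, which hold TG replicate 2, where 706 of 12725 genes had such a p by edgeR. In the deeper libraries there were 4 members, where 1167 of 12754 genes had one. Of the further genes 0 to 12 had an unadjusted p under 0.05. The 12, of 66, were in the edgeR fit with depth class as a covariate, where 8.97% of all genes had one. That list was chosen with earlier results of these data known, and none of it passed after adjustment. The median log2 fold change of the members lay between 0.01 and 0.07. Over all genes, 2 passed as reported, and 15 with DESeq2, 4 without a filter, 1 with limma at either pseudocount (1 or 0.1, on log2 FPKM), 0 without Carns1, 28 with depth class as a covariate, 59 in the deeper and 4 in the shallower libraries, and 1 to 3 when 1 library was left out. The replicate block gave 1. The numbers share no stated batch, and the deviations of same-numbered libraries correlated at 0.24, -0.28, -0.18 and 0.40, with 3 of 8 libraries correlating best with their own number. Of 341 values of 18 genes, 331 kept their direction and side of the threshold. The other 10 changed direction. Nfe2l2 had 0.015 in the shallower libraries and -0.094 to 0.055 when 1 library was left out. In the deeper libraries Gpx3 had -0.098, G6pdx -0.062, Pgd -0.040 and Tkt -0.181. When 1 library was left out Pgd ranged from -0.015 to 0.121 and Tkt from -0.021 to 1.032, both lowest without TG replicate 2. The cause was not tested. The replicate block changed no call of a member. With 4 libraries a group the intervals of 28 of 32 genes exclude changes past 1.5-fold.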
